A study of Homo sapiens with 4 samples.

Results

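The integrated stress response factors and CHOP targets examined here were 10 genes, ATF4, ATF3, ATF5, DDIT3, CEBPB, CEBPG, TRIB3, PPP1R15A, NUPR1 and CHAC1, of 19775 genes that the platform annotation names. They were found by symbol, and every probe set that named only one of them was taken, which gave 18 of the 54675 probe sets on the array. All 10 genes and 17 of these probe sets reached the brightness minimum of the tests, an intensity of 14.7. MCF10A is a line of non-tumorigenic human breast epithelium, and its total RNA was hybridised to 4 Affymetrix U133 Plus 2.0 arrays. The arrays labelled dKD, for double knockdown (n = 2), held cells with short hairpin RNAs (shRNA) against Cbl and Cbl-b, a pair of ubiquitin ligases through which active tyrosine kinase receptors are degraded, and the control arrays (n = 2) held RNA from control shRNA cells. All cells were MCF10A grown in DFCI-1 medium and harvested under normal growth, with no added stressor named in the labels. The labels give neither the hairpins nor whether the lines were clones or pools, and separate cultures behind the arrays are not stated, so that the spread the p-values rest on may be only technical.

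In the integrated stress response, kinases that sense unfolded protein in the endoplasmic reticulum (ER), missing amino acids, double-stranded RNA or lack of heme phosphorylate the translation factor eIF2. Most protein synthesis then slows, while upstream reading frames let ribosomes reach the coding sequence of ATF4, a basic leucine zipper (bZIP) factor that switches on genes of amino acid supply, redox balance and feedback. DDIT3, which encodes the bZIP factor CHOP, is one of its targets, and CHOP and ATF4 together drive TRIB3, CHAC1 and PPP1R15A. Much of the control of ATF4 and ATF5 lies in translation, which arrays of RNA do not measure.

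The 4 arrays were alike in brightness, with medians over all probe sets between 14.5 and 14.7. Of the targeted transcripts, CBL read 31.1 and 29.0 on the arrays labelled dKD and 126 and 84.4 on the control arrays on its brightest probe set (log2 change -1.37). Its other 4 probe sets had log2 changes between -0.33 and -0.047, with none called (2 of them lay below the brightness minimum), and with probe sets averaged the log2 change of CBL was -0.41 (adjusted p = 0.0175). CBLB went against its label, with 94.8 and 99.5 on the arrays labelled dKD and 64.3 and 70.0 on the control arrays (log2 change 0.45, and 0.28 with probe sets averaged), and for that reason the arrays are called dKD-labelled throughout. Basal epithelial markers of MCF10A were bright: 7 of 10 had a probe set of their own, and all 7 lay above 4 times the brightness minimum. Their summed intensity was 17583 and 19185 on the dKD-labelled arrays and 27292 and 29314 on the control arrays. Among the 7, 1 was called higher and 2 lower: KRT14 (log2 change -1.62) and KRT5 (-0.73) carried the lower sum, while LAMB3 was higher (1.08). How far this bears on the values below was not tested. None of the 6 leukocyte markers and none of the 4 markers of estrogen receptor positive cells that were measured reached 4 times the minimum, whereas 2 of 8 endothelial and fibroblast markers did. In bulk RNA a change in the level per cell and a change in the share of cells that express a gene cannot be told apart.

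Of the 10 genes, 6 were higher on the dKD-labelled arrays and none was lower. DDIT3 rose 9.33-fold in mean intensity, CHAC1 2.24-fold and TRIB3 2.07-fold, followed by ATF3 at 1.85-fold, PPP1R15A at 1.70-fold and ATF4 at 1.31-fold. CEBPB, CEBPG, NUPR1 and ATF5 did not pass the test, an adjusted p under 0.05 from limma over 12951 genes. Among all genes tested, 9.41% were called higher, 6.6% lower and 16% in either direction. These were 1219 higher and 855 lower genes. With each array centred on the median of the probe sets that reached the brightness minimum, 1132 were higher and 1200 lower. The median log2 change was 0.52 over the 10 genes and -0.01 over all genes tested. Log2 changes here and below are those of intensity + 16, a constant that damps the noise of dim genes and understates their change, and the fold changes are ratios of mean intensity without it. For 9 of the 10 genes both dKD-labelled arrays read higher than both control arrays, which held for 28.1% of all genes tested. ATF5 was the exception.

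**Figure D1:**
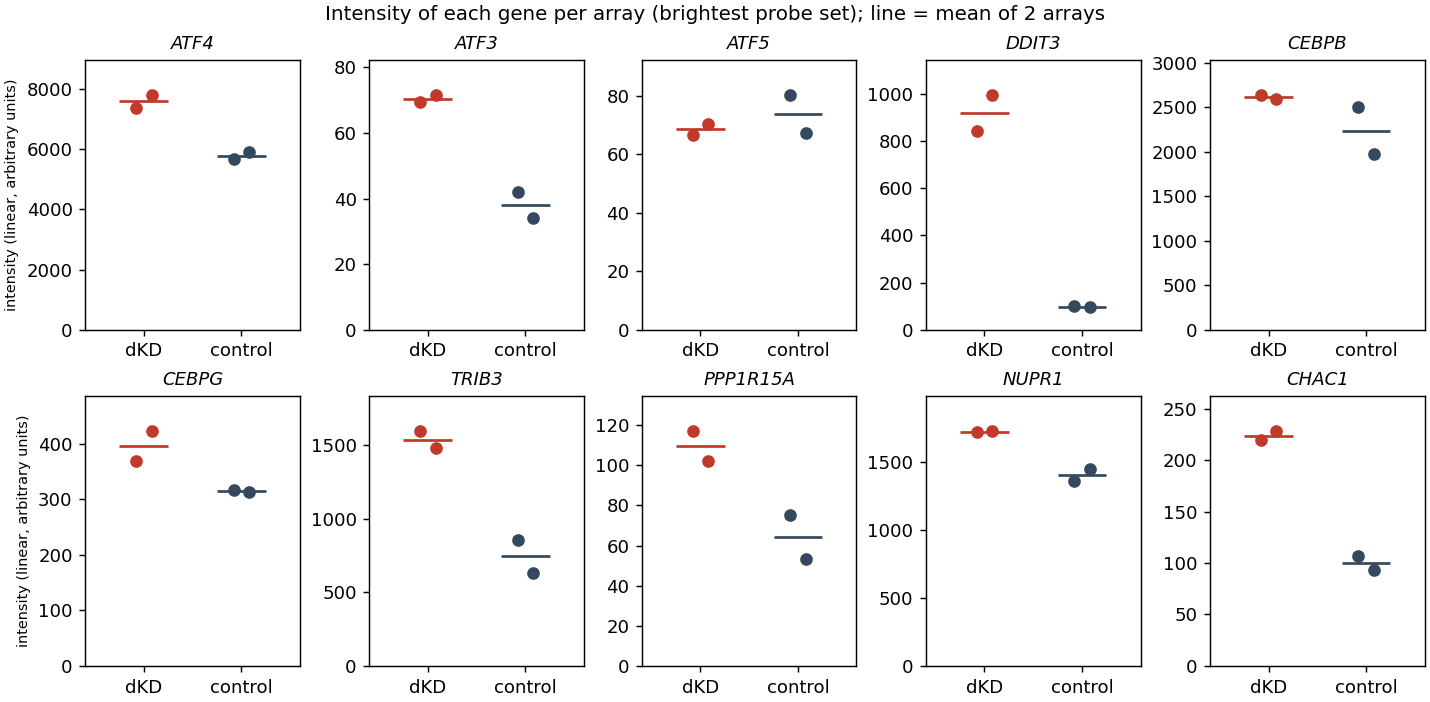
Linear intensity (arbitrary units, y axis) of the brightest probe set of each of the 10 genes on the dKD-labelled arrays (left in each panel, red) and the control arrays (right, dark blue); points are arrays and lines are means of 2. The groups lie apart for every gene but ATF5, and the gap relative to the level is widest for DDIT3, at 843 and 994 on the dKD-labelled arrays and 99.2 and 97.7 on the control arrays.

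ATF4, the bZIP factor at the centre of the response, read 7376 and 7786 on the dKD-labelled arrays, against 5667 and 5891 on the control arrays. The groups did not overlap, and the rise was small (log2 change 0.39 ± 0.09 SE, adjusted p = 0.0220). It ranked 1022 among 12951 genes ordered by log2 change. The call was lost without control replicate 1 (adjusted p = 0.0599), without dKD replicate 1 (0.108) and without dKD replicate 2 (0.191), at log2 changes of 0.36, 0.43 and 0.35. ATF4 rests on a single probe set, and the RefSeq gene table lists 4 pseudogenes of ATF4, and whether the probes also read these was not tested.

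DDIT3 stood at 843 and 994 on the dKD-labelled arrays and at 99.2 and 97.7 on the control arrays. Its control arrays agreed to within a few units, and the lower of the dKD-labelled arrays was still far above both. The log2 change was 3.02 ± 0.10 SE (adjusted p = 1.34e-05), the second highest of all genes tested, and it remained called whichever array was left out (2.91 to 3.14). The 4 genes whose values over the 4 arrays lay nearest to those of DDIT3, by Euclidean distance of log2 values from the control mean, were AKAP12 (0.22), HMOX1 (0.70), AGR2 (0.75) and ERO1B (0.76). By log2 change these held ranks 1, 3, 5 and 4 among all genes tested. With 2 arrays per group the distance largely follows the size of the change. AKAP12 encodes a scaffold for protein kinase A, HMOX1 breaks down heme, and AGR2 and ERO1B act in disulfide formation in the ER. With probe sets averaged, the log2 change was 1.5 for AKAP12, against 3.08 on its brightest probe set, and 1.32 for AGR2, against 2.49. DDIT3 rests on a single probe set, so that averaging cannot change its value.

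The promoter of DDIT3 is shown because this gene moved most. The RefSeq sequence (GRCh38.p14) runs over the 250 bases before an annotated start, 5′ to 3′, and the capitals mark CCAAT, any 9 bases, and CCAC, the layout of an ER stress response element without its last base.

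DDIT3, chr12:57520515-57520764, minus strand: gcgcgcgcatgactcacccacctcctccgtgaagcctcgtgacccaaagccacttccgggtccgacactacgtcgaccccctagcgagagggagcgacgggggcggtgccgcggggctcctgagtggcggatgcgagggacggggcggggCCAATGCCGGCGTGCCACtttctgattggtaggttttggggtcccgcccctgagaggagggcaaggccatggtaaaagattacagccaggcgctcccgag

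The full element, CCAAT, 9 bases and CCACG, was in none of the promoter windows of the listed genes and in 0.0769% of 35116 windows of 300 bases (250 before a start and 50 after it). The shorter form, looked for after the sequence had been seen, was in 0.316% of windows, both strands counted, and in DDIT3 alone among the 9 genes with a window. It begins 100 bases before the start. A match describes letters and does not show that a factor binds.

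ATF3, a bZIP repressor and activator induced by many stresses, read 69.3 and 71.5 on the dKD-labelled arrays, against 42.1 and 34.1 on the control arrays. These values come from its brightest probe set, where the groups lay apart (log2 change 0.68 ± 0.10 SE, adjusted p = 0.00487). Without 1 array the log2 change on this probe set ran from 0.57 to 0.79. ATF3 kept its call in every such fit of genes, but not in every such fit of probe sets. The remaining probe sets of ATF3 did not show the rise. On the second the intensities were 32.0 and 29.3 on the dKD-labelled arrays and 26.3 and 31.1 on the control arrays, and the groups overlapped (log2 change 0.06 ± 0.09 SE, adjusted p = 0.716). The last lay below the brightness minimum, with 11.4 and 10.6 on the dKD-labelled arrays and 12.6 and 12.1 on the control arrays. With the mean of the probe sets, the log2 change of ATF3 was 0.22 (adjusted p = 0.0488).

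ATF5, a bZIP factor whose translation responds to eIF2 as that of ATF4 does, had 4 probe sets, and in each of them the groups overlapped. The brightest read 66.5 and 70.4 on the dKD-labelled arrays and 80.1 and 67.1 on the control arrays (log2 change -0.08 ± 0.10 SE, adjusted p = 0.644). On the other probe sets the log2 changes were -0.07, -0.09 and -0.19, with adjusted p between 0.361 and 0.755. Each of the 4 is of a type that can match several transcripts.

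The C/EBP factors are bZIP proteins that pair with ATF4 or CHOP. CEBPB, a partner of CHOP, read 2637 and 2599 on the dKD-labelled arrays and 2501 and 1976 on the control arrays. The control arrays lay further apart than the groups did, and the gene was not called (log2 change 0.23 ± 0.12 SE, adjusted p = 0.233). The call turned on 1 array: without control replicate 1 the log2 change was 0.40 (adjusted p = 0.0416), and without control replicate 2 it was 0.07 (adjusted p = 0.685).

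CEBPG, which pairs with ATF4 at genes of amino acid and glutathione supply, had a pair of probe sets of like brightness that fell on either side of the threshold. On the one that represents the gene the intensities were 369 and 422 on the dKD-labelled arrays and 316 and 314 on the control arrays (log2 change 0.31 ± 0.10 SE, adjusted p = 0.0652). On the other they were 399 and 391 on the dKD-labelled arrays and 293 and 252 on the control arrays (log2 change 0.51 ± 0.10 SE, adjusted p = 0.0184 over 27280 probe sets). Both arrays of one group lay above both of the other on each probe set. With their mean the log2 change was 0.41 (adjusted p = 0.0155). The second probe set lost its call without control replicate 2 (adjusted p = 0.0553), dKD replicate 1 (0.157) or dKD replicate 2 (0.178).

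NUPR1, a small chromatin-associated stress protein, read 1720 and 1727 on the dKD-labelled arrays and 1364 and 1451 on the control arrays. The groups did not overlap, but the difference missed the threshold (log2 change 0.29 ± 0.09 SE, adjusted p = 0.0580). It passed under 6 of 14 alternatives, among them quantile normalization (adjusted p = 0.0459) and cyclic loess normalization (0.0348), and in none of the fits without 1 array.

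**Figure D2:**
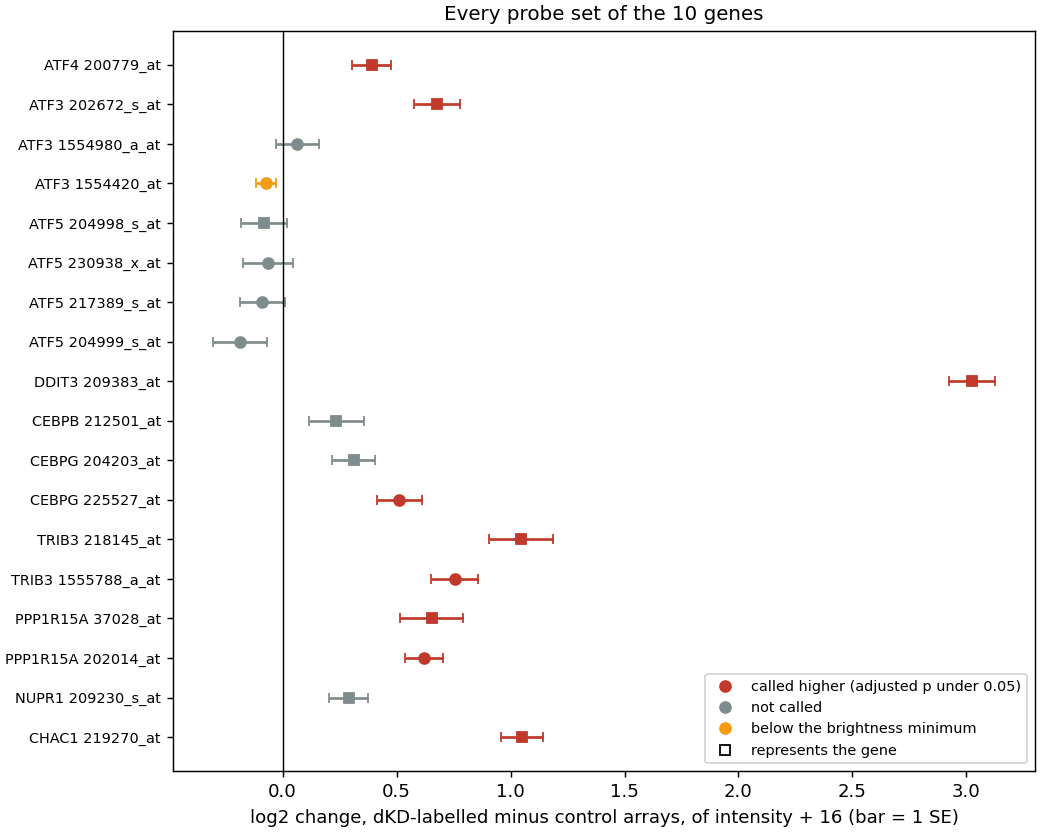
Log2 change of intensity + 16 (x axis, dKD-labelled minus control arrays, bar = 1 SE) for each of the 18 probe sets, named on the y axis; squares represent the gene, red marks a call and grey none, and orange a probe set below the brightness minimum. The pair of probe sets of TRIB3, and that of PPP1R15A, moved together, those of ATF3 did not, and all 4 of ATF5 sat near 0.

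At the level of probe sets, 9 of the 17 tested were called higher and none lower, where 7.89% of all 27280 probe sets were called higher. They belonged to 7 genes, the 6 named above and CEBPG. Without dKD replicate 1 the count was 2, and without dKD replicate 2 it was 1. For all probe sets tested, 28.4% had both dKD-labelled arrays above both control arrays. Probe sets of the same gene read the same RNA on the same arrays and are no independent support for each other.

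TRIB3, a target of ATF4 and CHOP, is a pseudokinase that binds AKT and ATF4 and restrains the response. It read 1591 and 1478 on the dKD-labelled arrays, against 852 and 634 on the control arrays. The lower dKD-labelled array exceeded the higher control array by a wide margin, although the control arrays differed from each other (log2 change 1.05 ± 0.14 SE, adjusted p = 0.00296). Its second probe set read 221 and 233 on the dKD-labelled arrays and 140 and 117 on the control arrays (log2 change 0.75 ± 0.10 SE, adjusted p = 0.00575). Without 1 array the log2 change ran from 0.84 to 1.25 on the brightest probe set and from 0.64 to 0.87 on the second. The brightest kept its call in every such fit of genes, but in the fits of probe sets neither kept it throughout.

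CHAC1, a gamma-glutamylcyclotransferase that breaks down glutathione, read 220 and 228 on the dKD-labelled arrays, against 106 and 93.5 on the control arrays. Arrays of one group differed little and the groups lay far apart (log2 change 1.05 ± 0.09 SE, adjusted p = 0.000498). CHAC1 and TRIB3 held ranks 111 and 113 among 12951 genes by log2 change, and 0.965% of genes had a log2 change of at least 1. Without 1 array the log2 change of CHAC1 ran from 0.97 to 1.13. Its call was kept in every such fit of genes, but not in every such fit of probe sets.

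PPP1R15A, or GADD34, which brings protein phosphatase 1 to eIF2 and so ends the response, read 117 and 102 on the dKD-labelled arrays and 75.2 and 53.4 on the control arrays. The groups were apart, with wide spread within each (log2 change 0.65 ± 0.14 SE, adjusted p = 0.0178). Its other probe set was dimmer and tighter, with 50.8 and 48.4 on the dKD-labelled arrays and 26.5 and 26.9 on the control arrays (log2 change 0.62 ± 0.08 SE, adjusted p = 0.00553). On the brighter one the call was lost without dKD replicate 1 (adjusted p = 0.112), without dKD replicate 2 (0.0590) and without a brightness filter (0.0760). The dimmer one lost its call without dKD replicate 1 (0.0892) and without dKD replicate 2 (0.101) too.

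The promoters of these effectors and of the factors were searched, both strands, for 8-letter motifs known from this response: TGATGNAA, the core of the C/EBP-ATF response element at which ATF4 and CHOP bind, TGACGTCA, the cAMP response element, and TTGCGCAA, a C/EBP palindrome. RefSeq held 18 windows for 9 of the 10 genes, many of them overlapping. The core was found in 1 window each of CHAC1, CEBPG and ATF3, against 3.62% of all 35116 windows and 2.15% of those of tested genes, and the cAMP response element in PPP1R15A alone, against 1.85% and 2.65%. The palindrome was in no window of these genes and in 0.151% of all. No match in these windows says only that the letters are absent from them. The CHAC1 and PPP1R15A promoters are shown because they carry a motif and belong to genes called higher on every probe set tested, and shorter stretches are shown for CEBPG and ATF3, whose probe sets differed. Each is 5′ to 3′ on the gene's strand in GRCh38.p14, with the motif in capitals. The core of CHAC1 lies on the opposite strand and so reads as its reverse complement.

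CHAC1, chr15:40953221-40953470, plus strand: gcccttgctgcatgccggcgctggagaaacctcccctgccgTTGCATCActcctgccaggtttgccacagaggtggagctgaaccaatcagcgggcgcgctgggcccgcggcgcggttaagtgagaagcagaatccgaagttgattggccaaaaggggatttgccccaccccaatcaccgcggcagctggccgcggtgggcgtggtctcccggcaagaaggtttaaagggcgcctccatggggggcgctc

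PPP1R15A, chr19:48872171-48872420, plus strand: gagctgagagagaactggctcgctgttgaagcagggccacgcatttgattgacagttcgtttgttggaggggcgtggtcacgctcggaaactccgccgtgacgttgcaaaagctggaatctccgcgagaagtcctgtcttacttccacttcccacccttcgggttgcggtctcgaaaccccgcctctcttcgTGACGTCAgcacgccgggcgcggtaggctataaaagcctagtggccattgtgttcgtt

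CEBPG, chr19:33374045-33374104, plus strand: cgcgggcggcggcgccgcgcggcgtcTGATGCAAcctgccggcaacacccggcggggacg

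ATF3, chr1:212565190-212565249, plus strand: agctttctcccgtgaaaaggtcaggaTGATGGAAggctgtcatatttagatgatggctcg

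The motif begins 209 bases before the start in CHAC1, 58 in PPP1R15A, 42 in CEBPG and 191 in ATF3. The core was thus present in CHAC1, which was called on its single probe set, and in ATF3 and CEBPG, which each passed on 1 of their probe sets, while the windows of DDIT3 and TRIB3 held none. None of these motifs overlapped another.

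**Figure D3:**
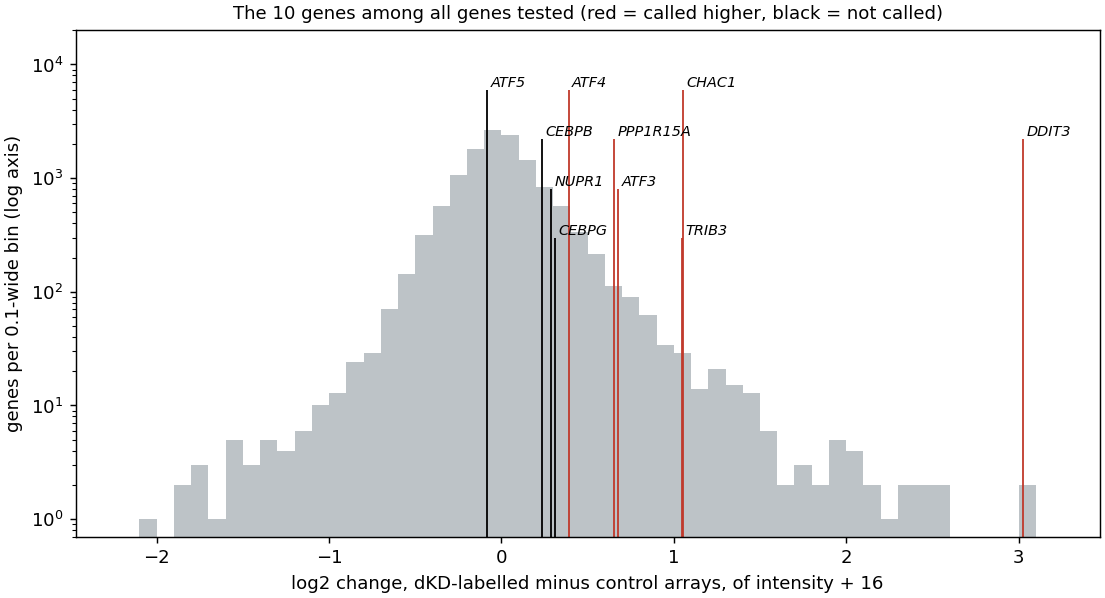
Histogram of the log2 change of intensity + 16 over the 12951 genes tested (x axis, dKD-labelled minus control arrays; y axis, genes per bin, log scale), with the 10 genes as vertical lines, red where called higher. DDIT3 lies at 3.02 in the far tail, CHAC1 and TRIB3 near 1.05, and ATF5 at -0.08 in the bulk.

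Upstream of ATF4, the eIF2 kinases and the complexes they act on were compared. Of 21 genes tested 3 rose and 3 fell (28.6% called, against 16% of all genes tested), with a median log2 change of -0.07. Among the 4 eIF2 kinases, EIF2AK3, which encodes the ER stress sensor PERK, read 248 and 218 on the dKD-labelled arrays and 93.9 and 92.4 on the control arrays (log2 change 1.19 ± 0.09 SE, adjusted p = 0.000308). The kinases that sense heme (EIF2AK1), double-stranded RNA (EIF2AK2) and amino acid lack (EIF2AK4) had log2 changes of -0.08, -0.07 and 0.12 and were not called, with adjusted p between 0.544 and 0.660. The difference between EIF2AK3 and the other kinases was not tested.

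DNAJC3, an ER cochaperone also known as an inhibitor of PERK and of the kinase that EIF2AK2 encodes, read 1876 and 1751 on the dKD-labelled arrays and 667 and 655 on the control arrays (log2 change 1.43 ± 0.09 SE, adjusted p = 8.54e-05). PPP1CC, a catalytic subunit of protein phosphatase 1, rose slightly (log2 change 0.35, adjusted p = 0.0359). EIF2B1, a subunit of the exchange factor that recharges eIF2, fell (log2 change -0.35, adjusted p = 0.0368), and so did, named after their values were seen, EIF2S1, the subunit of eIF2 that is phosphorylated (-0.36, 0.0382), and PPP1CA, another catalytic subunit of the phosphatase (-0.31, 0.0473). PPP1R15B, the constitutive counterpart of PPP1R15A, was not called (log2 change 0.35, adjusted p = 0.0925), but without control replicate 1 it was (0.52, 0.0219), and without control replicate 2 its log2 change was 0.18. With log2(intensity + 1), and in fits without control replicate 2, dKD replicate 1 or dKD replicate 2, 2 of these 21 genes were called, both of them higher. EIF2AK3 and DNAJC3 were called under all 15 alternatives, though with probe sets averaged the log2 change of EIF2AK3 was 0.58.

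Of 24 genes tested in the list of other bZIP factors that can pair with the listed ones, 4 rose and 1 fell. That was 20.8% called, against 16% of all genes tested, with a median log2 change of 0.10. The list also holds CEBPZ, which has no bZIP domain despite its symbol and was not called (log2 change -0.06). JDP2, a repressor related to ATF3, read 146 and 149 on the dKD-labelled arrays and 98.1 and 89.4 on the control arrays (log2 change 0.57 ± 0.09 SE, adjusted p = 0.00587). ATF2 rose by a log2 change of 0.58 (adjusted p = 0.0117), CREB1 of 0.54 (0.00640) and MAFF, a small MAF protein, of 0.41 (0.0254). With probe sets averaged, JDP2 had a log2 change of 0.27 and CREB1 of 0.30, and both were still called. MAF, named after its values were seen, fell (log2 change -0.32, adjusted p = 0.0404), and both its dKD-labelled arrays lay below the brightness minimum. The count was 3 without control replicate 2, 1 (JDP2) without dKD replicate 1 and 1 (ATF2) without dKD replicate 2. Other C/EBP genes were not called, with log2 changes of 0.14 for CEBPD, -0.21 for CEBPA and -0.10 for CEBPE.

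Of 8 close relatives of the 10 genes that were tested, the C/EBP genes and JDP2 included, 2 were higher and 1 was lower. That was 37.5% called, against 16% of all genes tested, with a median log2 change of 0.02. TRIB1 and TRIB2, the other tribbles pseudokinases, went opposite ways. TRIB2 read 123 and 129 on the dKD-labelled arrays and 204 and 176 on the control arrays (log2 change -0.53 ± 0.10 SE, adjusted p = 0.0116), and TRIB1 read 320 and 297 on the dKD-labelled arrays and 228 and 143 on the control arrays (log2 change 0.72 ± 0.18 SE, adjusted p = 0.0333). Without dKD replicate 1, TRIB1 had adjusted p = 0.141 and TRIB2 0.0880, without dKD replicate 2 they had 0.108 and 0.0717, and the list had 1 and 0 calls. The log2 change of TRIB1 was 1.03 without control replicate 1 and 0.41 without control replicate 2, and with the mean of its probe sets it was 0.25 and not called (adjusted p = 0.126). JDP2 was the other riser. CHAC2, the relative of CHAC1, was not called (log2 change -0.15, adjusted p = 0.306).

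Of 25 further targets of ATF4 and CHOP that were tested, 12 were higher and none was lower. That was 48% called, against 16% of all genes tested, with a median log2 change of 0.31. The other 13 were not called, and 4 of the 25 had a negative log2 change. The list was meant to leave out amino acid supply but holds SLC7A11, a cystine transporter. Counting SLC7A11 in the amino acid list, an alternative chosen after seeing the data, leaves 11 higher of 24 (45.8% called, median log2 change 0.29). The smallest p belonged to HERPUD1, a membrane protein of ER-associated degradation, with 4761 and 4783 on the dKD-labelled arrays and 1088 and 1012 on the control arrays (log2 change 2.17 ± 0.09 SE, adjusted p = 1.75e-05). NIBAN1, a stress-induced regulator of translation, read 189 and 161 on the dKD-labelled arrays and 23.5 and 19.2 on the control arrays (log2 change 2.35 ± 0.11 SE). GDF15, a secreted stress cytokine, averaged 526 ± 24.4 on the dKD-labelled arrays and 127 ± 8.21 on the control arrays (SD, n = 2 each, log2 change 1.92 ± 0.09 SE). SLC7A11, which feeds glutathione synthesis, rose too (log2 change 1.30 ± 0.10 SE, adjusted p = 0.000308). With probe sets averaged, the log2 changes were 0.63 for GDF15, 1.43 for HERPUD1 and 1.53 for NIBAN1, and all 3 were still called. HERPUD1 and DNAJC3 are also targets of other branches of the unfolded protein response.

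Of the targets of ATF4 listed for amino acid transport and synthesis, 2 were higher and 1 was lower of 19 tested (15.8% called, median log2 change 0.10), a share near that of all genes. With SLC7A11 counted here, 3 were higher and 1 lower of 20 (20% called, median log2 change 0.11). SLC3A2, the shared heavy chain of several amino acid transporters, read 938 and 924 on the dKD-labelled arrays and 647 and 627 on the control arrays (log2 change 0.54 ± 0.08 SE, adjusted p = 0.00629). MTHFD2, a mitochondrial one-carbon enzyme, rose by a log2 change of 0.51 (adjusted p = 0.0137). ASNS, asparagine synthetase and a classical target of ATF4, fell, with 1178 and 1227 on the dKD-labelled arrays and 1918 and 1886 on the control arrays (log2 change -0.65 ± 0.08 SE, adjusted p = 0.00277). With its probe sets averaged the log2 change of ASNS was -0.32 (adjusted p = 0.0186). PHGDH, the first enzyme of serine synthesis, was not called (log2 change -0.28, adjusted p = 0.0610). Without dKD replicate 1 the count was 1, that of ASNS, and without dKD replicate 2 SLC3A2 missed the threshold as well (adjusted p = 0.0598). Whether the amino acid list differs from the other target list was not tested.

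**Figure D4:**
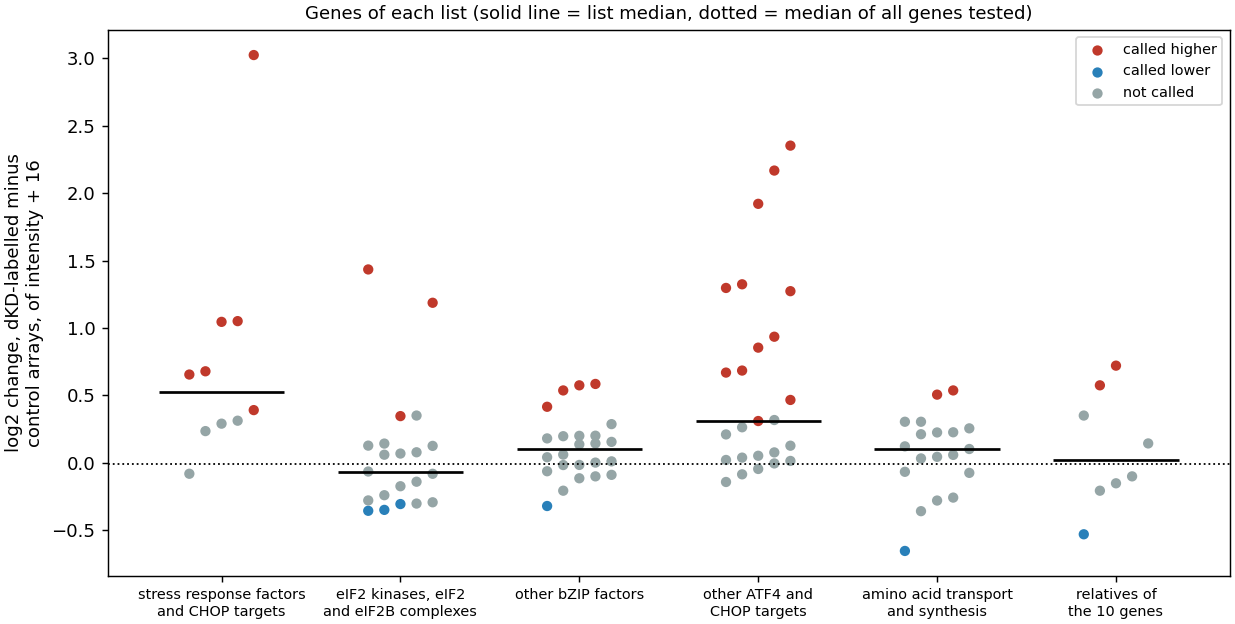
Log2 change of intensity + 16 (y axis, dKD-labelled minus control arrays) of every tested gene in the list of 10 genes and the 5 other lists (x axis); red marks genes called higher, blue genes called lower and grey genes not called, solid lines are list medians and the dotted line is the median of all genes tested. The other ATF4 and CHOP targets, SLC7A11 included, hold 12 genes called higher of 25 tested (48%). The amino acid list holds 2 higher and 1 lower of 19 (15.8%). Of all genes tested, 16% were called.

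The alternatives tried moved the members by different amounts, and the calls given next are those of the fit of genes. DDIT3, CHAC1 and TRIB3 were called under all 15 alternatives, at log2 changes of 2.59 to 3.20, 0.81 to 1.16 and 0.84 to 1.25, and ATF3 under all 13 that gave it a value, at 0.22 to 0.87. ATF4 was called under 11 of 15 and PPP1R15A under 12 of 15. ATF5 was called under none of its 14 alternatives.

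**Figure D5:**
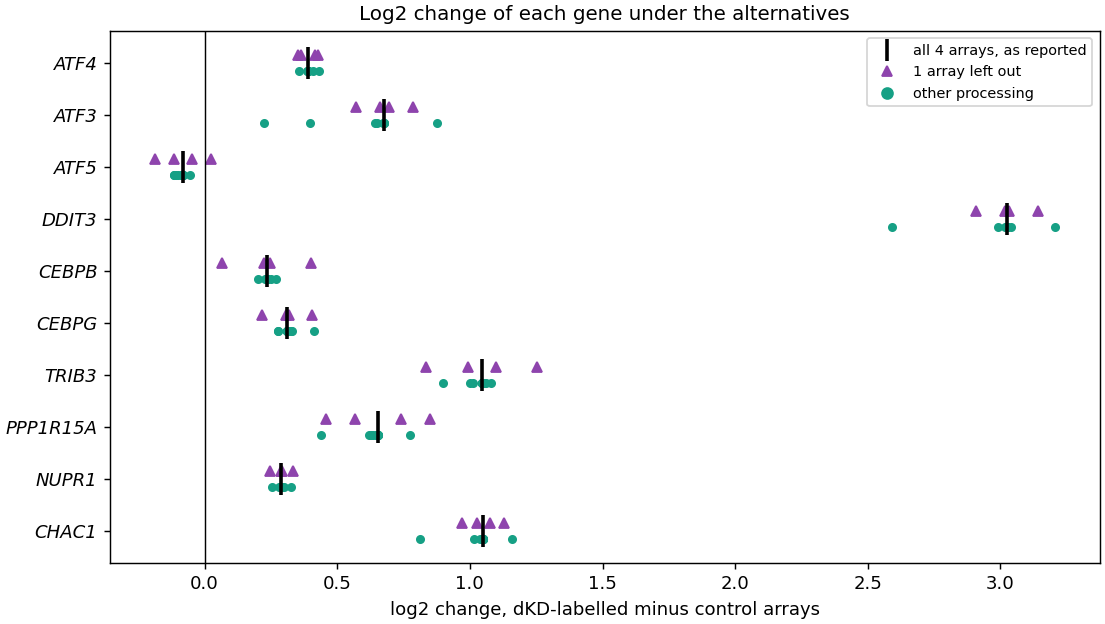
Log2 change (x axis, dKD-labelled minus control arrays) of each of the 10 genes (y axis) with all 4 arrays (black bar), with 1 array left out (purple triangles) and under other processing (green points). DDIT3 stays between 2.59 and 3.20, while ATF5 crosses 0 when control replicate 1 is left out (0.023).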

How the data were processed

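Total RNA of MCF10A cells was measured on 4 Affymetrix arrays, and sample titles gave the groups. For each probe set the authors deposited 1 intensity per array, linear by its range, with summarisation and normalization not stated in the labels. Arrays had medians of 14.6, 14.6, 14.7 and 14.5, and no further normalization was applied. The number of arrays limits the precision.

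Of 54675 probe sets, 62 controls were left out and 41091 named 1 gene in the platform annotation, and current symbols came from RefSeq (GRCh38.p14) for 41037 of these. A gene was its probe set with the highest mean. Genes (12951) or probe sets (27280) with a mean at or above the median probe set were tested on log2(intensity + 16) by lmFit and eBayes of limma 3.58.1 under R 4.3.3 (two-sided, no covariate, Benjamini-Hochberg over all tested, called at an adjusted p under 0.05). Standard errors are the moderated ones. The fit was tested on simulated data. There it recovered 5% of the 80 genes changed by a log2 of 0.5, 56.2% of 80 at 1 and 87.5% of 40 at 2. On the arrays far more genes, 2074, were called. The adjusted p depends on how many genes change, so these shares may not carry over to the arrays. The members and lists were chosen with earlier results of these data known. Named genes were the members, CBL and CBLB, the 4 genes of each other list with the smallest p, and the 4 genes nearest to DDIT3. The alternatives tried were quantile or cyclic loess normalization, centring of arrays, constants of 1 and 64, no and a stricter brightness filter (58.6), averaging over probe sets, leaving out probe sets of ambiguous match (suffix _s_at, _x_at or _a_at), an intensity trend, the replicate number as a block, leaving out each array and, chosen after seeing the data, counting SLC7A11 in the amino acid list.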

Additional observations from a re-analysis of the deposited data

How the results depend on the processing

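With 2 arrays per group, small changes can be missed, and a fit without 1 array takes its spread from a single pair. Over all genes, 2074 calls became 536 to 1995 without 1 array (682 without dKD replicate 1 and 536 without dKD replicate 2) and 1529 to 2504 under the other settings. Of the 10 genes, 4 to 6 were called without 1 array and 5 to 8 under the 11 other settings, against 6, and of their 17 probe sets, 1 to 8 and 6 to 10, against 9 (2 without dKD replicate 1, 1 without dKD replicate 2). The lists had, without 1 array, 2 to 5 calls for the eIF2 list, 1 to 6 for other bZIP factors, 9 to 11 for other ATF4 and CHOP targets, 1 to 4 for amino acid targets and 0 to 4 for relatives. With log2(intensity + 1) the eIF2 list had 2 calls. With ambiguous probe sets left out, the other targets had 6 calls of 16 tested and the amino acid targets 1 of 11, fewer genes being tested, and ATF3, ATF5 and NUPR1 had no value. With probe sets averaged per gene, the amino acid targets had 6 calls, 3 higher and 3 lower. The cause of these shifts was otherwise not tested.

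Values that changed sign were never called. Without 1 array, ATF5 ran from -0.19 to 0.023 on its brightest probe set, from -0.19 to 0.011 on the third and from -0.19 to 0.059 on its second, and ATF3 from -0.013 to 0.14 on its second. Scaling moved the median of all genes by less than 0.1: it was -0.04 with array centring, -0.02 with quantile and -0.0040 with cyclic loess normalization, against -0.01.

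The groups share replicate numbers, but the labels do not say that these pair the arrays. Same-numbered arrays had deviations from their group means that correlated at 0.244 over 12951 genes, with 2 pairs. With the replicate number as a block, 2504 genes were called, 6 of the 10 genes and 9 of their probe sets. Groups of 2 are too small to test whether 1 array stands apart.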
